A study of Mus musculus with 16 samples.

Results

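Chromatin accessibility was compared between wild-type medullary thymic epithelial cells (mTECs) of 2 mouse lines, using 8 of the 16 libraries in the series: 4 from Aire+/+ mice and 4 from Brg1+/+ mice. Libraries were chosen by their labels, with earlier results of these data known, and sort was kept as a covariate. Of the 250313 regions of 500 bp in the deposited table (mm9 build), 216258 were tested. They were the regions with a mean signal over the 8 libraries of at least 7.5, outside a block of chromosome 2 from 77.7 to 77.87 Mb. That block was left out because its signal was already known to differ between the lines. The lowest region kept had a mean of 7.50009 and the highest one below the limit a mean of 7.49998.

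All mice were 4 weeks old and labelled C57BL/6. Each line gave 2 libraries of mTEChi, the fraction with high surface MHC class II, and 2 of mTEClo, the fraction with low MHC class II, at 60000 sorted cells per transposition. The Brg1+/+ columns carry the name NOCRE, which reads as mice without the Cre transgene of that line. The driver of the Cre, the state of the Brg1 alleles in these controls, the number of mice per library and whether animals were pooled, and their sex, are not stated in the labels. The knockouts of the same lines, 4 Aire-/- and 4 Brg1-/- libraries in the same sorts, were kept out of the wild-type fit. They had a fit of their own, in which the wild-type calls were looked up, and gave the regions that mark a sort. Since nothing ties the 2 libraries of a group to separate mice, p-values measure the spread between these libraries, which may be technical.

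Medullary epithelial cells display self-antigens to developing T cells, and Aire, a nuclear regulator found mostly in mTEChi, drives the transcription of many of them. Brg1 is the ATPase subunit of SWI/SNF complexes, which move nucleosomes and so alter how open chromatin is. ATAC-seq reads openness as the number of places where the transposase Tn5 can insert adapters. Wild-type mice of each line serve as the control of its knockout. A comparison of those controls shows how far 2 nominally equal references differ. In this design, line goes together with anything else that differed between the 2 sets of libraries, such as their preparation. A line difference here therefore cannot be told apart from such a difference. It was not possible to check the sorted fractions against marker genes, since no gene annotation of mm9 was used here.

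The lines were nearly as similar to each other as libraries of 1 line were among themselves. Correlations were taken over regions, which do not count as replicates. The log2 signal of the 2 Aire+/+ mTEClo libraries had r = 0.771 and that of the 2 Brg1+/+ mTEClo libraries r = 0.817. The 4 pairs across lines gave 0.727 to 0.847. In mTEChi the same values were 0.520 and 0.678 within lines and 0.539 to 0.664 across lines. Aire+/+ mTEChi replicate 2 stood apart, with a median r of 0.54 with the other wild-type mTEChi libraries, against 0.650 to 0.664 for the other 3. A signal of 0 was listed for 1705 of the tested regions in that library and for 2103 in Aire+/+ mTEClo replicate 2, and for none in the other 6 wild-type libraries.

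With sort as a covariate, 18 regions differed between the lines, which is 0.00832% of those tested (limma, Benjamini-Hochberg adjusted p under 0.05, two-sided). In 12 of them (0.00555% of those tested) Aire+/+ was higher, and in 6 (0.00277%) Brg1+/+ was higher. Differences are given as Aire+/+ minus Brg1+/+ on the log2(signal + 1) scale, which understates the change of low regions. They ranged in size from 0.92 to 3.91 for the regions higher in Aire+/+ and from 0.82 to 4.62 for those higher in Brg1+/+. All 18 had the lines apart within each sort, an arrangement met by 9.42% of tested regions with Aire+/+ above and 0.951% with Brg1+/+ above. In 11 of the 12 and 5 of the 6, all 4 libraries of the higher line lay above all 4 of the other, as in 3.59% and 0.24% of all tested regions. These are bulk samples, so fewer cells of a type and less open chromatin per cell cannot be told apart.

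The number of calls depended on the libraries, the scaling and the variance model. It was 7 without Aire+/+ mTEChi replicate 1, 5 without Aire+/+ mTEChi replicate 2 and 7 without Aire+/+ mTEClo replicate 2. It was 1 and 5 without Brg1+/+ mTEChi replicates 1 and 2, and 5 and 2 without Brg1+/+ mTEClo replicates 1 and 2. No region was called without the trend and robust settings of the variance moderation, where 24039 regions had an unadjusted p under 0.05 by limma. The 6 regions higher in Brg1+/+ were called under each of 3 other scalings (quantile, cyclic loess and re-centring on library medians). Of the 12 higher in Aire+/+, 0 were called under all 3. These scalings also lowered the median difference over all regions, from 0.301 to -0.018, -0.005 and -0.148. The 2 directions were therefore not treated alike. With 1 library left out, each of the 12 higher in Aire+/+ was called in 0 to 3 of the 8 fits. Each of the 6 higher in Brg1+/+ was called in 3 to 8 of them. Each of the 18 kept its direction in every alternative fit that tested it.

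**Figure D1:**
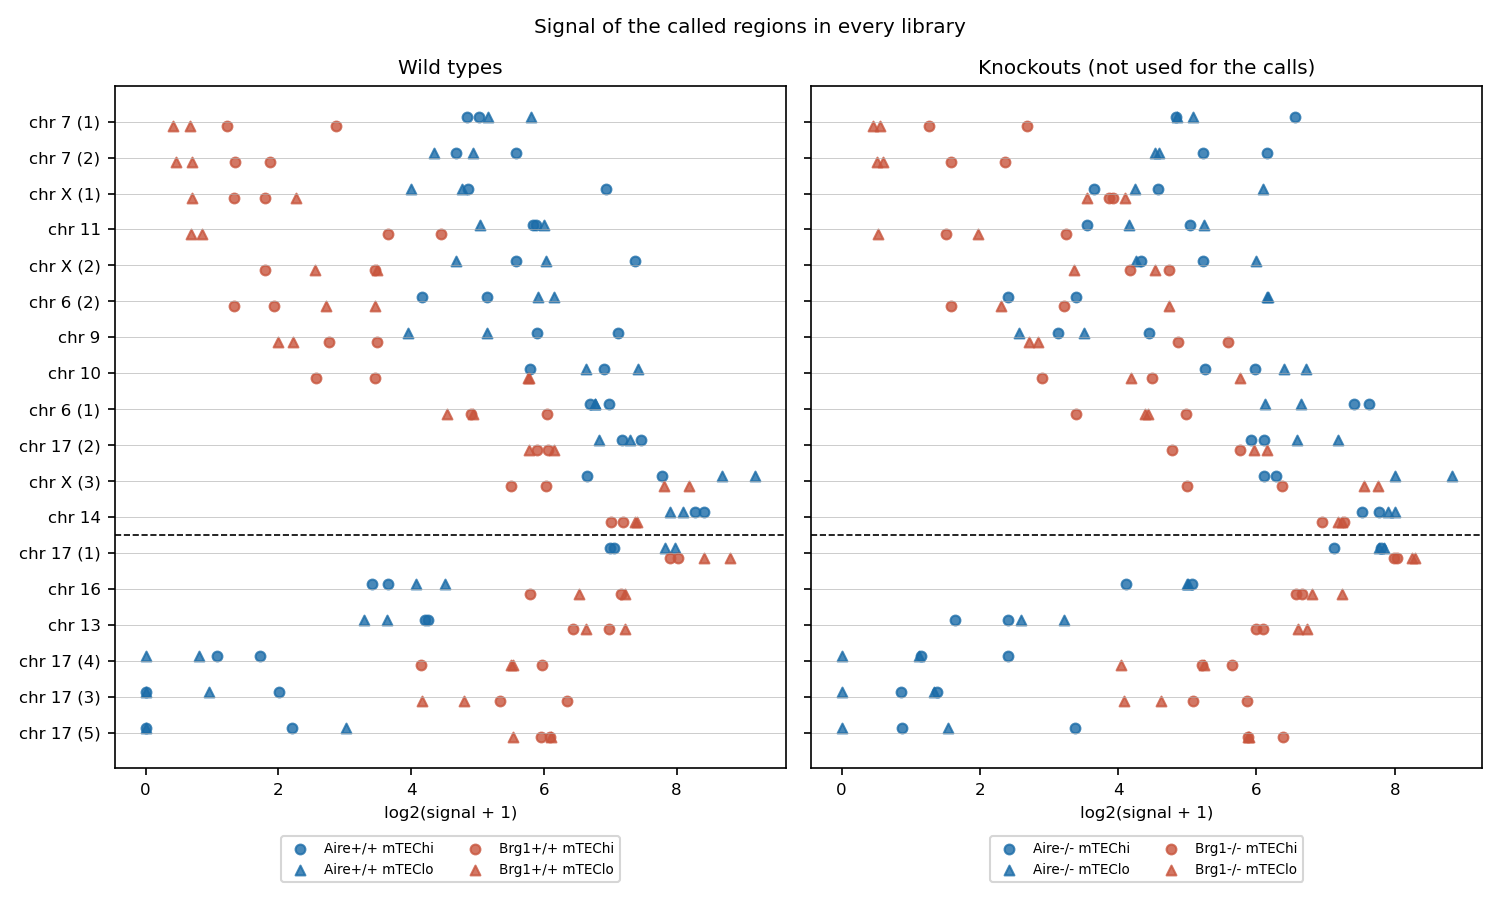
Signal of the 18 called regions, as log2(signal + 1), in the 8 wild-type libraries (left) and the 8 knockout libraries (right), with circles for mTEChi, triangles for mTEClo, blue for the Aire line and red for the Brg1 line. Regions are ordered by line difference and numbered by position within a chromosome, and those under the dashed line were the 6 higher in Brg1+/+. In the bottom 3 rows the lines stay apart in the knockouts, while the 3 rows of chromosome X overlap there.

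The 3 regions with the largest difference lay within 116 kb on chromosome 17, in the class I part of the mouse major histocompatibility (H2) complex by general knowledge of the mouse map. The H2 class I genes encode proteins that present peptides and form a family of similar sequences. How the authors treated reads that match more than 1 place is not stated in the labels, so signal at such regions is uncertain. In the one with the largest difference (chromosome 17, 36445786 to 36446285), Brg1+/+ libraries held 67.2 and 61.4 in mTEChi and 45.4 and 68.05 in mTEClo. Aire+/+ libraries held 3.64 and a listed 0 in mTEChi and 7.14 and a listed 0 in mTEClo. The log2 difference was -4.62 with an SE of 0.62 (adjusted p = 0.00212). No Aire+/+ library came near the lowest Brg1+/+ library.

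The region from 36342340 to 36342839 gave 16.7 and 61.9 in Brg1+/+ mTEChi and 44.6 and 45.5 in Brg1+/+ mTEClo. Its Aire+/+ values were 2.29 and 1.11 in mTEChi and 0.739 and a listed 0 in mTEClo (log2 difference -4.39, SE 0.65, adjusted p = 0.00968). The last, from 36330341 to 36330840, held 39.3 and 80.9 in Brg1+/+ mTEChi and 17.01 and 26.9 in Brg1+/+ mTEClo, against 3.04, 0.949 and 2 listed 0 values in Aire+/+ (log2 difference -4.42, SE 0.70, adjusted p = 0.0176). In all 3 the lines did not overlap. The listed 0 values came from the 2 Aire+/+ libraries that list 0 elsewhere too, and the other 2 Aire+/+ libraries were also below every Brg1+/+ library. The calls at 36342340 and 36330341 were lost when any 1 of the 4 Brg1+/+ libraries was left out, and the call at 36445786 without any of them except mTEClo replicate 1, with differences of -4.13 to -4.91 in these fits.

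Most regions around these calls differed little between the lines. Of the 20 tested regions from 36.29 to 36.46 Mb, 4 had a log2 difference below -4: the 3 just described and 1 from 36304541 to 36305040, which was not called (log2 difference -4.33, adjusted p = 0.0843). A further 12 of the 20 differed by less than 1. The other 4 were not called and went both ways. Between the calls at 36330341 and 36342340, the region from 36335449 to 36335948 was lower in Aire+/+ (log2 difference -1.52, adjusted p = 0.414), as was the one from 36297983 to 36298482 (log2 difference -1.47, adjusted p = 0.427). Just before the call at 36330341, the regions from 36326200 to 36326699 (log2 difference 1.46, adjusted p = 0.414) and from 36326854 to 36327353 (log2 difference 2.55, adjusted p = 0.297) were higher in Aire+/+. At 81.4 kb before the call at 36330341, from 36248401 to 36248900, a region was called higher in Aire+/+. It gave 143, 176, 112 and 156 in the Aire+/+ libraries and 58.3, 65.9, 70.4 and 53.8 in the Brg1+/+ libraries (log2 difference 1.22, SE 0.21, adjusted p = 0.0288), with no overlap.

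**Figure D2:**
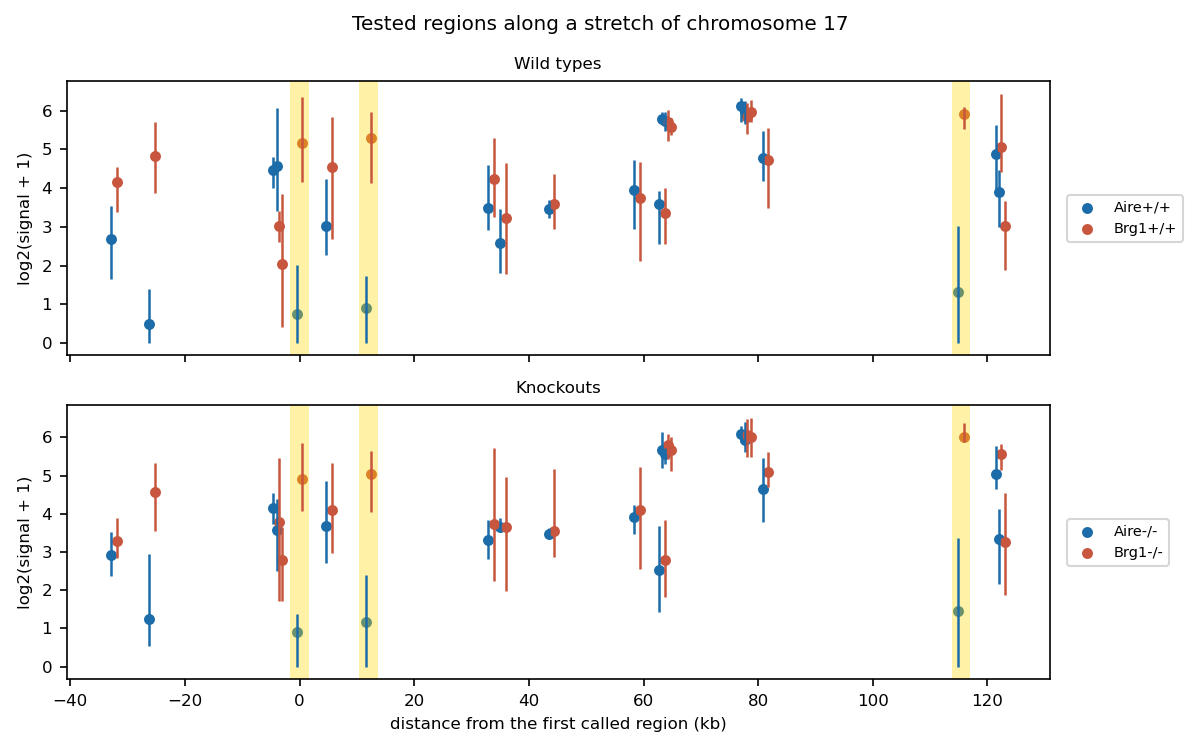
Tested regions along a stretch of chromosome 17, by distance in kb from the first of the 3 called regions, for wild types (top) and knockouts (bottom). Points are means of log2(signal + 1) over the 4 libraries of a line, lines span the lowest to the highest library, and yellow bands mark called regions. In the wild types the lines are apart at the 3 bands, at 1 region 25.3 kb before the first and, in the other direction, at 1 region just before it, and overlap at the other 15.

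Of the other regions higher in Brg1+/+, the one with the smallest adjusted p was on chromosome 13 from 105532912 to 105533411. Brg1+/+ held 125.6 and 85.7 in mTEChi and 147.6 and 98.7 in mTEClo, against 18.05 and 17.5 in Aire+/+ mTEChi and 8.73 and 11.5 in Aire+/+ mTEClo (log2 difference -2.97, SE 0.34, adjusted p = 0.000356). It was the only call that stood in all 8 fits with 1 library left out. On chromosome 16 from 92948715 to 92949214, Aire+/+ gave 11.6, 9.68, 21.7 and 15.8 and Brg1+/+ 143, 54.1, 148 and 91.2, again apart (log2 difference -2.76, SE 0.36, adjusted p = 0.00212). Neither region had a neighbour within 50 kb that was lower in Aire+/+ with an unadjusted p under 0.05, among 3 and 11 tested neighbours. Only 0.923% of all tested regions met that measure, so these few neighbours cannot show whether the calls stood alone. The sixth, on chromosome 17 from 17200689 to 17201188, was open in every library: 127 to 249.7 in Aire+/+ and 237 to 447 in Brg1+/+ (log2 difference -0.82, SE 0.13, adjusted p = 0.0148). Its groups were apart within each sort and overlapped across sorts.

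Among the regions higher in Aire+/+, a pair on chromosome 7 came close to an on and off pattern. From 46910513 to 46911012, signal was 27.7 and 31.6 in Aire+/+ mTEChi and 55.1 and 34.6 in Aire+/+ mTEClo. In Brg1+/+ it was 1.33 and 6.28 in mTEChi and 0.335 and 0.594 in mTEClo (log2 difference 3.91, SE 0.61, adjusted p = 0.0168). From 73465862 to 73466361, Aire+/+ gave 24.6, 46.7, 29.5 and 19.3, and Brg1+/+ 1.54, 2.68, 0.374 and 0.621 (log2 difference 3.79, SE 0.65, adjusted p = 0.0320). Neither had overlapping lines. With 1 library left out, the first was called in 1 of the 8 fits and the second in 0. The mean of the second lay just under that of the median tested region (15.74), so the rule for named regions left it out, and it is given after its values were seen.

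Chromosome 6 carried 2 calls. The region from 125417253 to 125417752 was even across sorts in Aire+/+, at 103 and 125.5 in mTEChi and 108.4 and 107.7 in mTEClo. Brg1+/+ gave 28.8, 64.9, 22.2 and 29.5 in the same order (log2 difference 1.70, SE 0.28, adjusted p = 0.0288). The region from 136846346 to 136846845 held 16.96 to 70.2 in Aire+/+ and 1.52 to 9.996 in Brg1+/+ (log2 difference 2.98, SE 0.49, adjusted p = 0.0288). Both sets of libraries were apart.

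A region of chromosome 10 from 7761605 to 7762104 was called in mTEChi and over both sorts (log2 difference 2.29, SE 0.39, adjusted p = 0.0288). Signal there was 54.2 and 118.6 in Aire+/+ mTEChi against 9.98 and 4.91 in Brg1+/+ mTEChi, and 98.3 and 169.7 in Aire+/+ mTEClo against 53.7 and 53.5 in Brg1+/+ mTEClo. The log2 difference was 3.33 in mTEChi and 1.25 in mTEClo, and the test of the difference between sorts did not pass (adjusted p = 0.933). On chromosome 11 from 88830298 to 88830797 the larger difference was in mTEClo, with 1.81 in mTEChi and 4.76 in mTEClo (interaction adjusted p = 0.933, difference over both sorts 3.29, adjusted p = 0.0288). Its values were 56.4, 58.2, 31.9 and 63.2 in Aire+/+ and 20.8, 11.6, 0.803 and 0.605 in Brg1+/+. Both regions had the lines apart within each sort, and in the region of chromosome 10 the lowest library of Aire+/+ was barely above the highest of Brg1+/+.

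The remaining autosomal calls were on chromosomes 9 and 14. From 61660133 to 61660632 of chromosome 9, Aire+/+ held 14.5 to 137 and Brg1+/+ 2.98 to 10.2 (log2 difference 2.91, adjusted p = 0.0288). From 72245406 to 72245905 of chromosome 14, signal was high in all libraries, at 237 to 338 in Aire+/+ and 128 to 168 in Brg1+/+. That was the smallest called difference in this direction (0.92, SE 0.14, adjusted p = 0.0148); it fell outside the rule for named regions, which took 10 per direction.

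Chromosome X held 3 calls among 3434 tested regions (0.0874%), against 0.00705% over the autosomes and 0.0568% on chromosome 17 (5 of 8802). All 3 calls on chromosome X were higher in Aire+/+. The region from 4657445 to 4657944 gave 28.1, 121.7, 14.9 and 26.1 in Aire+/+ and 1.53, 2.47, 3.81 and 0.627 in Brg1+/+ (log2 difference 3.61, SE 0.61, adjusted p = 0.0288). The region from 32099498 to 32099997 gave 47, 164.4, 24.6 and 64.3 against 9.98, 2.47, 10.2 and 4.88 (log2 difference 3.09, SE 0.53, adjusted p = 0.0288). In both, the highest value came from Aire+/+ mTEChi replicate 2, and neither was called without that library, nor without several of the others. Without that library, 0 regions on any chromosome were called higher in Aire+/+. The last of the 3, from 166412808 to 166413307 near the distal end, held 99.3 to 582 in Aire+/+ and 44.4 to 292 in Brg1+/+, apart within each sort (log2 difference 1.19, adjusted p = 0.0288). Over all its tested regions, chromosome X had a median log2 difference of 0.337, against 0.3 on the autosomes. The share higher in Aire+/+ with an unadjusted p under 0.05 by limma was 8.79% there and 9.24% on the autosomes.

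The regions of chromosome X lay among others with a difference of the same sign. Of 13 tested neighbours within 50 kb of the first, 12 were higher in Aire+/+ with an unadjusted p under 0.05, as were 16 of 18 around the second and 16 of 26 around the last. Over all regions, 9.23% met that measure, and around the 15 autosomal calls the highest share was 8 of 17, around the call at 36248401 of chromosome 17. Runs of at least 4 consecutive tested regions with a log2 difference of 1.5 or more, a measure chosen after the data were seen, numbered 23 higher in Aire+/+ and 0 higher in Brg1+/+. After re-centring on the overall median, 7 and 0 were found, and after quantile normalization 6 and 0.

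The longest run held 20 regions on chromosome X from 31532784 to 32114057. Its median signal was 24.6 and 45.7 in Aire+/+ mTEChi, 12.3 and 29.0 in Aire+/+ mTEClo, 1.53 and 7.52 in Brg1+/+ mTEChi and 3.77 and 3.02 in Brg1+/+ mTEClo. Chromosome 1 held 12 of the 23 runs, 11 of them from 90118453 to 93888011. Runs of 13 regions each lay on chromosome 7 from 46533860 to 46614336 and on chromosome X from 4663693 to 4782510. In 22 of the 23 runs Aire+/+ mTEChi replicate 2 had the highest median of the 8 libraries, and without that library 17 runs were found.

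The regions called in the wild types were then looked up in the knockouts, which share no library with the wild-type comparison. Aire-/- and Brg1-/- differ in the deleted gene as well as in line, so a difference there cannot be assigned to either. Regions and runs were picked on their wild-type values alone, so smaller differences in the knockouts can come from that choice. Of the 18 regions, 17 had the same sign in Aire-/- minus Brg1-/-, where 60.9% of all tested regions were positive and 39.1% negative. Over all tested regions, 63.2% of those positive in the wild types were positive in the knockouts, and 44.8% of those negative were negative. In the fit of the knockouts alone, 336 regions (0.155%) were called, 256 higher in Aire-/- (0.118%) and 80 higher in Brg1-/- (0.037%). Other scalings split the knockout calls differently: quantile normalization gave 64 and 80, loess 78 and 63, and re-centring 34 and 43. Among the 336 were 8 of the 18, each in the same direction. Those 8 make up 44.4% of the wild-type calls and 2.38% of the knockout calls. Across all tested regions the wild-type and knockout differences correlated weakly (Pearson r = 0.086, Spearman rho = 0.095); the points share regions and not libraries.

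All 6 regions higher in Brg1+/+ had the same sign in the knockouts. Their median log2 difference was -3.68 in the wild types and -3.88 in the knockouts, 5 of the 6 were called there, and in all 6 the groups were apart within both sorts, against 2.8% of tested regions. On chromosome 17 from 36445786 to 36446285, Brg1-/- held 82.1, 57.7, 58.5 and 57.7 and Aire-/- 0.828, 9.33, 1.90 and a listed 0 (log2 difference -4.56, SE 0.57, adjusted p = 0.000482). The listed 0 came from Aire-/- mTEClo replicate 2, the only knockout library with listed 0 values, which had them at 1763 tested regions. It also listed 0 at the calls at 36330341 and 36342340. The chromosome 13 region gave 62.4 to 105.2 in Brg1-/- and 2.12 to 8.31 in Aire-/- (log2 difference -3.89, adjusted p = 7.26e-05), a larger difference than in the wild types, while that on chromosome 16 was smaller (-2.02, adjusted p = 0.0016). The one not called was the region at 17200689 of chromosome 17 (log2 difference -0.50, adjusted p = 0.148).

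The regions higher in Aire+/+ were less uniform, and in 7 of the 12 the knockout groups were apart within both sorts, against 7.99% of tested regions. The 9 on autosomes had a median log2 difference of 2.91 in the wild types and 1.75 in the knockouts, and 3 of them were called there. These were both regions of chromosome 7, with 4.09 (adjusted p = 0.00318) and 3.86 (adjusted p = 0.00443), and the region at 125417253 of chromosome 6, with 2.65 (adjusted p = 0.000838). At 46910513 of chromosome 7, Aire-/- held 93.6, 27.5, 32.7 and 27.8 and Brg1-/- 5.40, 1.41, 0.466 and 0.375, again without overlap. The chromosome 9 region changed sign, at -0.59 (adjusted p = 0.71), with 4.92 to 20.9 in Aire-/- and 5.55 to 47.1 in Brg1-/-. The 3 calls on chromosome X had knockout differences of 0.64, 0.75 and 0.79, none of them called, and their groups overlapped within at least 1 sort.

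**Figure D3:**
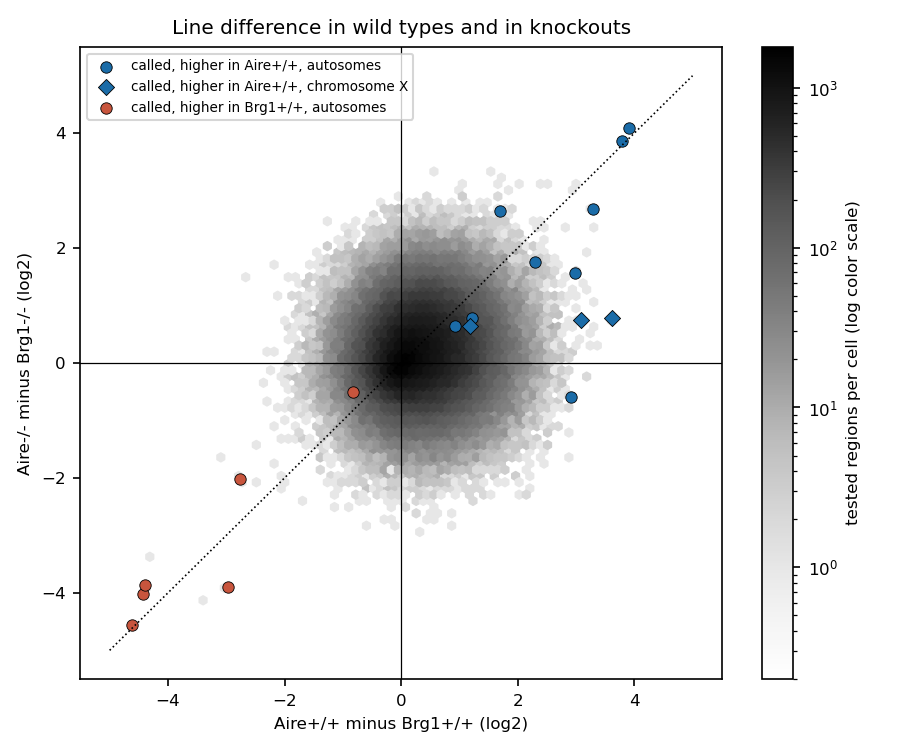
Line difference in the knockouts (y axis, log2) against that in the wild types (x axis, log2) for all 216258 tested regions, with the 18 called regions as coloured points and a dotted line where both are equal. The red points and the blue points of chromosomes 7, 10, 11, 14 and 17 lie within 0.92 of the dotted line. The diamonds of chromosome X lie 0.55 to 2.82 below it, the nearest of them also within 0.92. The blue points of chromosome 6 lie 0.95 above and 1.41 below it. The blue point of chromosome 9 lies 3.5 below it, the farthest of the 18.

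The runs of consecutive regions, picked for their size in the wild types, had smaller differences in the knockouts. Their median log2 difference was positive in 22 of the 23 runs, with a median over runs of 0.63, against 0.16 over all tested regions. The run of 20 regions on chromosome X had a median of 2.33 in the wild types and 0.89 in the knockouts, where 4 of its 20 regions were positive with an unadjusted p under 0.05. A run of 4 regions on chromosome 11 from 88829507 to 88832152, which holds a called region, kept most of its difference, at 2.69 and 2.32.

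Beneath the calls, signal as deposited was higher in Aire+/+ over most of the table. The median log2 difference over all regions was 0.301 and 71.2% of regions were positive. Of the 21962 regions with an unadjusted p under 0.05 (10.2%), 19967 were higher in Aire+/+. The shift followed the level of signal: split into 10 equal sets by mean signal, the regions had a median difference of 0.536 in the lowest set and 0.005 in the highest. It was larger in mTEClo (0.411) than in mTEChi (0.181). Library medians over the tested regions were 17.99 and 21.5 in Aire+/+ mTEChi, 14.2 and 16.3 in Brg1+/+ mTEChi, 14.5 and 15.7 in Aire+/+ mTEClo and 10.4 and 9.60 in Brg1+/+ mTEClo. The sign of the overall median depended on the scaling: it was -0.018 after quantile normalization, -0.005 after cyclic loess and -0.148 after re-centring. The split of calls moved with it, from 12 higher in Aire+/+ and 6 in Brg1+/+ to 3 and 8, 1 and 7, and 8 and 213.

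**Figure D4:**
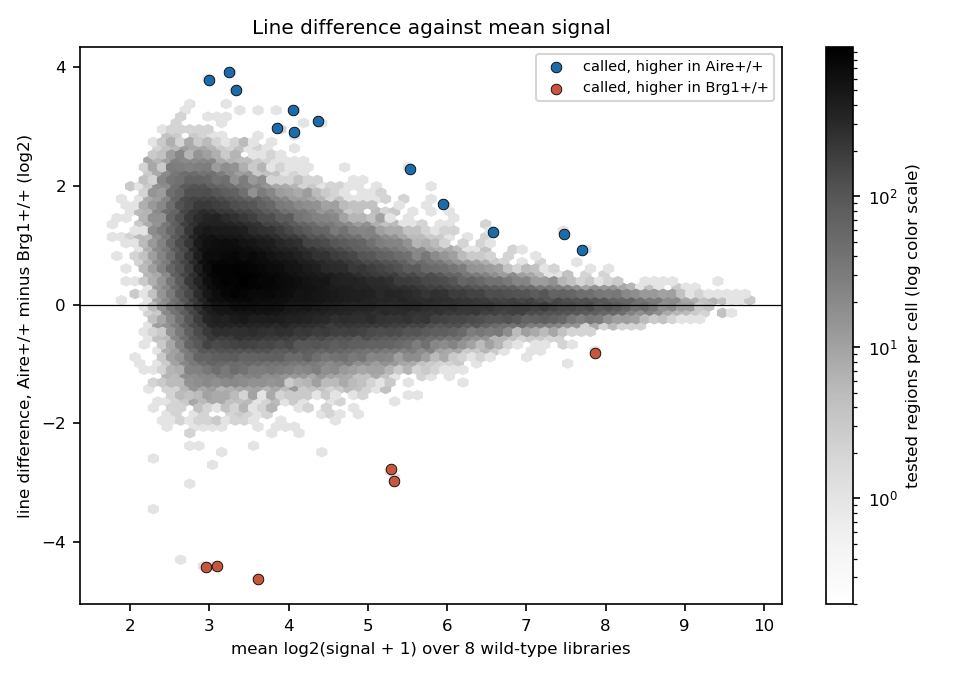
Line difference (y axis, log2) against mean log2(signal + 1) over the 8 wild-type libraries (x axis) for the tested regions, shaded by their number, with called regions coloured. The cloud is shifted upward at low signal and centred near 0 at high signal, and 5 of the 6 red points lie below -2.

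**Figure D5:**
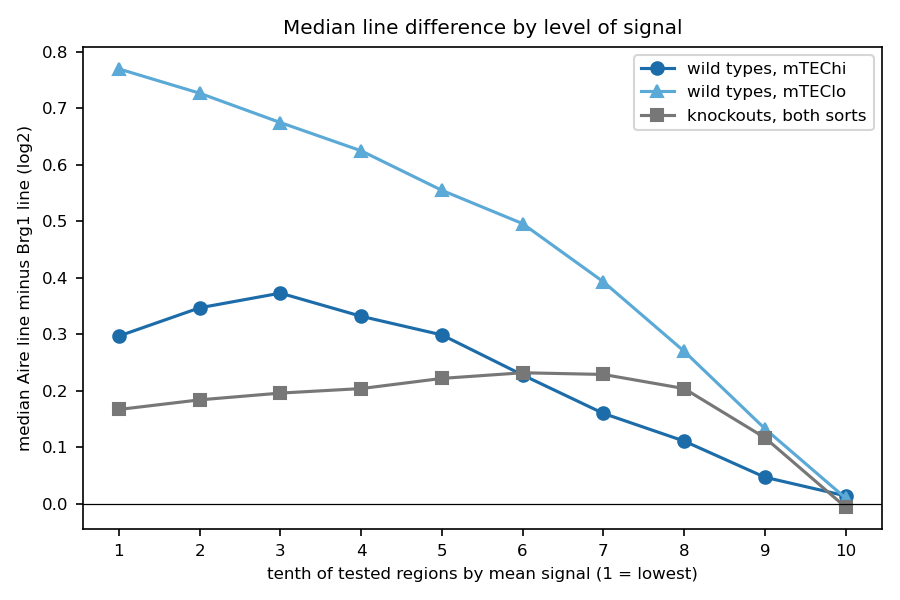
Median line difference (log2) in 10 equal sets of tested regions ordered by mean signal, for wild-type mTEChi, wild-type mTEClo and the knockouts. In mTEClo the medians fall from 0.77 in the lowest set to 0.010 in the highest, in mTEChi they go from 0.297 through 0.373 in set 3 to 0.014, and in the knockouts they lie between -0.006 and 0.232.

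Within single sorts fewer regions passed. In mTEChi 4 regions were called (0.00185%), all 4 higher in Aire+/+, and in mTEClo 2 (0.000925%), 1 in each direction. Of these 6, 4 were among the 18. The other 2 were mTEChi calls, on chromosome 6 from 94524458 to 94524957 and on chromosome 7 from 119646974 to 119647473, given after their values were seen. The latter gave 64.5 and 88.2 in Aire+/+ mTEChi against 6.25 and 6.28 in Brg1+/+ mTEChi, beside 42.0 and 39.2 against 54.4 and 53.5 in mTEClo. No region was called for a difference between sorts in the line effect by limma (0%), where 11085 (5.13%) had an unadjusted p under 0.05 and the smallest adjusted p was 0.933. The direction and number of mTEChi calls rested on single libraries. Without Aire+/+ mTEChi replicate 1, which leaves 1 library in that group and assumes that it varies like the others, 172 were called, 24 higher in Aire+/+ and 148 in Brg1+/+. The count was 8 and 48 without Brg1+/+ mTEChi replicates 1 and 2, and 0 without any 1 of the other 5 libraries. The mTEClo count was 0 without any 1 of the 8.

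Regions that mark a sort were taken from the knockouts, so that the wild types did not choose them: 34080 were higher in mTEChi and 10371 in mTEClo. How far these stood out in each line was read per library. Relative to regions of neither class, the mTEChi-higher regions were at 1.12 and 0.64 in Aire+/+ mTEChi and 1.11 and 1.16 in Brg1+/+ mTEChi, in log2 units. The mTEClo-higher regions were at 2.19 and 2.15 in Aire+/+ mTEClo and 2.55 and 2.50 in Brg1+/+ mTEClo. Over both sorts the line shift was -0.181 and -0.210, each with p = 0.111 by a two-sided exact permutation test within sorts, whose smallest possible p is 0.0556, so that no shift could pass 0.05. The pooled SD within groups was 0.173 and 0.068. On this relative measure, the mTEClo-higher regions were lower in both Aire+/+ mTEClo libraries than in both Brg1+/+ ones. Their signal as deposited was not lower: the median line difference in mTEClo was 0.193 there and 0.43 at regions of neither class. With only regions at or above the median signal the shifts were -0.015 and 0.012. The shift at mTEClo-higher regions was of the other sign after quantile normalization (0.038) and cyclic loess (0.100). Without Aire+/+ mTEChi replicate 2 the shift at mTEChi-higher regions was -0.061, and without replicate 1 it was -0.302. Of the 18 calls, 4 fell in the mTEClo-higher class (0.0386% of it), 1 in the mTEChi-higher class (0.00293%) and 13 in neither (0.00757%).

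Calls were spread over 10 chromosomes. Among 513 bins of 5 Mb with at least 50 tested regions, 14 held a call and 1, on chromosome 17 from 35000001 to 40000000, held more than 1. The knockouts of these lines lack Smarca4, which encodes Brg1, or Aire, so windows of 10 Mb that hold these genes by general knowledge of mm9 were read as well. None of 652 regions on chromosome 9 from 16.5 to 26.5 Mb, or of 1487 on chromosome 10 from 72.5 to 82.5 Mb, was called by limma; 10.6% and 7.80% had an unadjusted p under 0.05, against 10.2% overall. Relative to all regions, their median signal was shifted between the lines by 0.020 and -0.033, and that of the chromosome 2 flanks by 0.069. The flanks of the chromosome 2 block, 5 Mb on each side, had 0 calls by limma among 649 regions, with 10.6% at an unadjusted p under 0.05. Inside the block, all 167 regions above the signal limit were lower in Aire+/+, with a median log2 difference of -3.54, and of -4.57 in the knockouts.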

How the data were processed

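Per the submitters' processing notes, Bowtie2, MACS2 and the mm9 build were used, without versions given. The authors deposited 1 table of signal per region and library; the sources used here do not give how regions were defined, reads shifted for Tn5, duplicates removed or libraries scaled. The deposited signal values are not whole counts and many regions share 1 value, so library depth is unknown and counting intervals were not computed. Region starts were taken as counted from 0 and are printed counted from 1. No mm9 gene models were used, so regions were not linked to genes and no sequences are shown.

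The values were analysed as log2(signal + 1). limma 3.58.1 in R 4.3.3 fitted line and sort to the 8 wild-type libraries (5 residual degrees of freedom) with trend and robust moderation, and group means (4 residual degrees of freedom) for the single sorts and the interaction. The knockouts had the same line and sort fit. The call threshold was 0.05 for the Benjamini-Hochberg adjusted p, over all tested regions. Named regions were the called ones whose lines were apart in each sort and whose mean signal was not below the median of tested regions, at most 10 per direction by size of difference. Members, windows and lists were chosen with earlier results of these data known. Simulated data for all 216258 regions had normal noise and no other line difference, with changes placed only in regions at or above the median signal. The line fit recovered 0%, 19.4% and 43.9% of regions changed by log2 differences of 1, 2 and 3, with 0 false calls. Even there, most of the changed regions were missed at each of these sizes, so a low count of calls does not show that the lines are equal. The deposited data also hold a shift between the lines that follows the level of signal, which the simulation left out. Alternatives varied the pseudocount, filter, scaling, libraries, weights, variance settings and replicate block.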

Additional observations from a re-analysis of the deposited data

How the results depend on the processing

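Depth is not recorded with these values, and 2 libraries per group limit what can be called. The count of regions called over both sorts (18) became 6 with a pseudocount of 0.5, 11 after quantile normalization, 8 after cyclic loess, 221 after re-centring, 73 with quality weights, 0 with plain empirical Bayes moderation and 218 with the chromosome 2 block kept in. Without 1 library it was 1 to 14. Whether the replicate numbers pair libraries was checked: over all tested regions, deviations of same-numbered libraries correlated at -0.004 to 0.030. That measure cannot show a pairing limited to some regions. The wild-type libraries with listed 0 values were both replicate 2 of the Aire line. So was the only knockout library with such values, Aire-/- mTEClo replicate 2. With the replicate block the count was 30 over both sorts, 8 in mTEChi and 0 for the interaction.

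The mTEChi count (4) was 0 with a pseudocount of 0.5 or 5, no filter, any of the 3 scalings, quality weights, plain moderation or only the 4 libraries of the sort, 83 with all 16 libraries in the fit and 153 with the block of chromosome 2 kept in (30 higher in Aire+/+, 123 in Brg1+/+), and 0 to 172 without 1 library. The mTEClo count (2) was 1 with a pseudocount of 5, after cyclic loess, after re-centring or with all 16 libraries, 0 without a filter, after quantile normalization, with plain moderation or only the 4 libraries, 6 with quality weights, 53 with the chromosome 2 block and 0 without any 1 library. The knockout count (336) was 190 and 747 with pseudocounts of 0.5 and 5, 144, 141 and 77 under the quantile, loess and re-centring scalings, 640 with quality weights, 0 with plain moderation and 688 with the chromosome 2 block.

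The overall median was 0.175 with only regions at or above the median signal, and -0.018 and -0.005 after quantile and loess normalization, which even out the libraries by construction, and -0.148 after re-centring; without 1 library it was 0.252 to 0.345. The line shift at mTEChi-higher regions (-0.181) was -0.015 with the stricter filter and that at mTEClo-higher regions (-0.210) was 0.012 with the stricter filter, 0.038 after quantile normalization and 0.100 after loess. In the chromosome 9 window (0.020) it was -0.109 with the stricter filter (exact permutation p = 0.0556, the smallest it can give) and -0.018 to 0.059 without 1 library. In the chromosome 10 window (-0.033) it was 0 and 0.024 after quantile and loess normalization. With the chromosome 2 block kept in, the window of its flanks, which then spans it, shifted by -0.642 in place of 0.069. The runs higher in Aire+/+ (23) were 7 after re-centring and 6 after quantile normalization. For results without a value that shows it, the cause was not tested. The interaction count stayed 0 in all 21 alternatives. The share of called regions with the same sign in the knockouts was 94.4%, and 91.7% to 100% in the 20 alternatives with a call. Over all tested regions the same-sign share was 57.9%. The alternatives share libraries and calls with the main fit.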
